A study of Mus musculus with 2 samples.

Results

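The genes described here are the 5 subunits of the hypoxia-inducible factors (HIFs) and 5 regulators that sense oxygen for them. They were found as all non-control probes whose gene name in both scanner files was Hif1a, Epas1, Hif3a, Arnt, Arnt2, Vhl, Hif1an, Egln1, Egln2 or Egln3. That gave 18 of the 55674 probes left after flagged spots were removed, 11 for subunits and 7 for regulators, and 10 of 36400 gene names. The cells were NSPCs, that is neural stem and progenitor cells, made from mouse embryonic stem cells by way of embryoid bodies. Of 2 samples, one held cells overexpressing the microRNA miR-153, and the other held cells labelled as the overexpression control. Both were grown as tertiary neurospheres, taken at passage 2 and day 18, and each gave 1 Agilent 1-colour array, so differences have no replicate check and no p-values are given. The labels used here give no mouse strain, vector or promoter for either culture.

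HIFs are pairs of an alpha and a beta subunit that bind DNA together and switch on genes for glycolysis, vessel growth and survival when oxygen is low. In oxygen, prolyl hydroxylases of the EGLN family modify the alpha subunits, the VHL protein then recognises them, and the ubiquitin ligase it belongs to marks them for destruction. HIF1AN, an asparagine hydroxylase, separately keeps the alpha subunits from recruiting their coactivators. Alpha subunits are thus controlled largely as proteins, which these arrays do not measure. Among the genes described, Egln1, Egln3 and Hif3a are known to be switched on by HIF itself, so that they form a feedback on the pathway. The question was whether the subunits and regulators differed between the cultures or only these feedback genes did. HIF1A has been reported as a target of miR-153 in human breast cancer cells.

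The labels name miR-153 without saying which mature form was overexpressed. The form miR-153-3p was taken here, and miR-153-5p was not searched. The seed, bases 2 to 8, is in capitals in the mature form from RefSeq (GRCm38.p6, chr12:117250860-117250881, plus strand).
mmu-miR-153-3p: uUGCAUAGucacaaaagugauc
No member probe held the 7 bases CTATGCA that pair with this seed, searched on the strand each probe is written in, and 0.336% of all 55681 probe sequences, flagged spots included, did. The shorter match TATGCA stood in 1 of the 18 member probes, an Egln3 probe, against 1.44% of all probe sequences. The stretch of that probe from base 3 to base 32 is shown with the match in capitals.
Egln3 probe: cccagcatttatTATGCActatgtttactt
A probe samples only 60 bases of a transcript, so these counts say nothing of the rest of it.

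On the miR-153 array 55.6% of 59305 non-control spots lay well above background, against 52.5% on the control array, and no spot was saturated. The 75th percentile of signal was 549 units on the miR-153 array and 435 on the control array. Levels below are log2 of the signal minus that percentile, and a difference is the miR-153 level minus the control level. A signal can therefore be higher on the miR-153 array while its level is lower. A probe counted as higher or lower at 2-fold, which is a fixed size and not a test. Repeat spots of a probe had a median SD of 0.075 for this difference over 288 probes, and the 2 brightest probes of a gene differed by a median of 0.29 over 5022 genes. Both values come from within the same arrays and hold no spread between cultures. Each member probe had a single spot. Over all probes measured on both arrays the median difference was -0.11. Scaling on spike-in RNA raised every difference by 0.24 and put that median at 0.13. The neural stem and progenitor markers were present, with 8 of 8 measured on both arrays. By brightest probe, 2 of them were at least 2-fold higher, Prom1 (1.74) and Sox1 (1.15), and 0 lower. Over all genes 9.22% were that much higher, and the other Sox1 probe was at 0.40. The median of the 8 markers was 0.17, with 5 above 0 and 3 below, among them Sox2 at 0.29 and Nes lowest at -0.95.

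Of the 18 member probes, 14 were measured on both arrays, 1 exceeded background clearly solely on the control array, and 3 on neither. Each of the 10 genes had at least 1 measured probe. Of the 14, 1 was higher by 2-fold or more in miR-153 cells, 3 were lower by as much and 10 lay between. Over all 27439 measured probes, 9.02% were that much higher and 11.5% that much lower. By gene, with the brightest probe standing for each, Arnt2 was higher, Egln3 was lower and 8 genes lay between, against 9.22% higher and 11% lower over 20431 genes. The median was -0.26 over 7 subunit probes and 0.39 over 7 regulator probes. The ranges overlapped, from -1.35 to 1.11 for the subunits and from -1.25 to 0.88 for the regulators, so neither group stood apart as a whole. The regulator probes split into 4 above 0 and 3 below, and the 3 below belonged to Egln1 and Egln3.

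**Figure D1:**
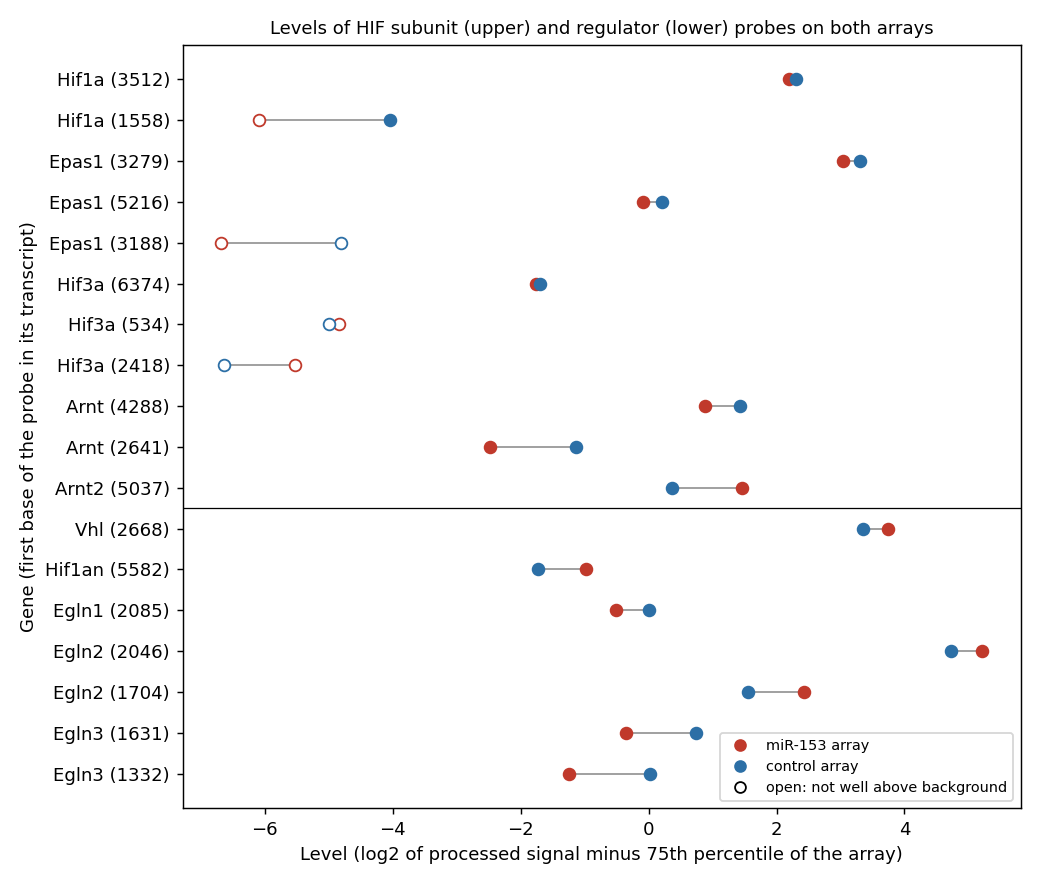
Levels of all 18 member probes on the miR-153 array (red) and the control array (blue), as log2 of signal minus the 75th percentile of the array, with subunits above the line and regulators below it. Open points were not well above background. Among filled pairs, those of Hif1a (first base 3512), both measured Epas1 probes and Hif3a (first base 6374) lie closer together than those of Arnt2 and Egln3. Levels of different probes are not comparable.

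The alpha subunit genes differed little. Hif1a, the most widely expressed alpha subunit, had a signal of 2520 on the miR-153 array and 2162 on the control array on the probe at mm9 chr12:75047269-75047329. Its levels were 2.20 on the miR-153 array and 2.31 on the control array, a 1.08-fold lower value (-0.11) that lay at the median of all probes. Spike-in scaling put it at 0.13, so no direction is given. The other Hif1a probe was designed on a RIKEN cDNA, not on the RefSeq transcript, and lies at chr12:75033965-75034024. Its signal was 8.09 on the miR-153 array, not well above background, and 26.5 on the control array, where it was at least 1.77-fold higher. That bound is short of 2-fold, and the probe was dim on both arrays. The 30 first bases of both probes show that they read different stretches.
Hif1a RefSeq probe: ttttttggcctatggaattgttaagcctgg
Hif1a cDNA probe: cctaatctgttactacttgtgtgtaattgt

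Epas1 encodes HIF-2 alpha, the subunit known for its role in vessels and in erythropoietin production. Its probe at chr17:87230678-87230737 had a signal of 4522 on the miR-153 array and 4303 on the control array, 1.20-fold lower (-0.26) after scaling. A probe further along the transcript, at chr17:87232615-87232674, gave 516 on the miR-153 array and 502 on the control array (-0.30). Both differences exceeded the repeat-spot SD, lay near the median of all probes and shrank to -0.021 and -0.056 under spike-in scaling. Another probe, which starts 91 bases before the first one, was not well above background on any array, with signals of 5.34 on the miR-153 array and 15.6 on the control array. Epas1 is also a gene of endothelial cells. Of 8 endothelial markers, 4 were measured on both arrays, with summed levels over all 8 of 12.1 on the miR-153 array and 19.5 on the control array in multiples of the 75th percentile. All 4 measured ones were below 0, with Flt1 at -2.32, Kdr at -0.68, Egfl7 at -0.60 and Pecam1 at -0.26. Below 0 were also 56.1% of all genes and 9 of 10 housekeeping genes, whose median was -0.42. Only Flt1 was at least 2-fold lower, as were 11% of all genes. Kdr, with a signal of 5695 on the miR-153 array and 7217 on the control array, made up most of the summed level. Cdh5, Tek and Cldn5 did not exceed background clearly on either array, and Esam did so on the miR-153 array only. The part of such cells in the Epas1 signal was not tested.

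Hif3a encodes a further alpha subunit, of which short forms are known to inhibit the others. Of its 3 probes only that nearest the end of the transcript, at chr7:17616855-17616914, was measured. It gave 161 on the miR-153 array and 134 on the control array, a difference of -0.07 that is within the repeat-spot SD and was 0.17 under spike-in scaling. The other Hif3a probes had signals of 19.3 and 11.9 on the miR-153 array, against 13.6 and 4.36 on the control array. Neither was well above background, so the stretches they read were too dim to compare. All 3 probes were designed on the same RefSeq transcript and their exons are not annotated, so whether they tell forms of Hif3a apart is not known.

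The beta subunits pair with the alpha subunits and, unlike them, are not known to be destroyed by oxygen. Arnt2, the beta subunit most typical of neural tissue, had a signal of 1518 on the miR-153 array and 558 on the control array at chr7:91395682-91395741. It was 2.15-fold higher (1.11), with 7.42% of all probes higher still. It was the only member probe past 2-fold upward, and under the 10 settings tried for it the difference ranged from 1.04 to 1.35. Some of these settings could not change the value by their design. Arnt, the general beta subunit, was lower on both of its probes. The brighter one, at chr3:95301081-95301140, gave 1015 on the miR-153 array and 1177 on the control array, or 1.46-fold lower (-0.55). The dimmer one, at chr3:95299434-95299493, gave 98.3 on the miR-153 array and 199 on the control array, or 2.56-fold lower (-1.35). The gap of 0.80 between them exceeded the median gap between probes of a gene, and normexp background correction put the dimmer one at -0.99. Arnt and Arnt2 thus stood on opposite sides of 0 in all settings tried. The first 30 bases of the 60 in each probe are given because the beta subunits hold the 1 higher member probe and 1 of the 3 lower ones.
Arnt2 probe: tgcatcataaagtgactattgtgggtagta
Arnt brighter probe: ccatctgtgctaagccttaactgtggcaaa
Arnt dimmer probe: tttccaccccttgacttgctgaagaaacgt

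Markers of neurons were higher on the miR-153 array beside Arnt2. Of 5 measured, 3 were at least 2-fold higher and 0 lower, with a median of 1.92 and summed levels of 97.2 on the miR-153 array and 31.5 on the control array. Fewer cells of a type and less RNA per cell cannot be told apart in such bulk RNA, and the part of neurons in the Arnt2 difference was not tested. The proliferation markers Bub1, Ccnb1, Ccnb2, Mki67, Cdk1 and Top2a were all at least 2-fold lower, with a median of -2.44 and summed levels of 17.2 on the miR-153 array and 92.2 on the control array. Their part in the differences of the HIF genes was not tested either.

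Vhl and Hif1an, the regulators that act beside the hydroxylases of the EGLN family, were both on the higher side without reaching 2-fold. Vhl, which recognises hydroxylated alpha subunits, had a signal of 7334 on the miR-153 array and 4422 on the control array at chr6:113581566-113581625, 1.31-fold higher (0.39). Hif1an had 280 on the miR-153 array and 132 on the control array at chr19:44650157-44650216, 1.68-fold higher (0.75), or 0.50 with normexp. Both differences were several times the repeat-spot SD, which holds no spread between cultures. Of all probes, 25.2% were higher than Vhl and 13.9% higher than Hif1an.

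The 3 prolyl hydroxylases differed in direction. Egln1, the main hydroxylase of the alpha subunits in most cells and a feedback gene, had a signal of 387 on the miR-153 array and 437 on the control array, 1.43-fold lower (-0.51). The file places 13 bases of its probe, at chr8:127432487-127432499. Egln2, which HIF is not known to induce, was higher on both of its probes. The probe at chr7:27943678-27943737 gave 20449 on the miR-153 array and 11563 on the control array (0.49), and the one at chr7:27944020-27944079 gave 2974 on the miR-153 array and 1278 on the control array (0.88). Neither reached 2-fold, though spike-in scaling put the second at 1.13.

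Egln3, a hydroxylase gene known to be induced by low oxygen, was the regulator past 2-fold. Its brighter probe, at chr12:55280953-55281012, had a signal of 432 on the miR-153 array and 731 on the control array, 2.14-fold lower (-1.09). Its other probe, at chr12:55281252-55281311, gave 233 on the miR-153 array and 440 on the control array, 2.38-fold lower (-1.25). The pair differed from each other by 0.16, less than the median gap between probes of a gene. Of all probes, 9.80% were lower than the first and 7.65% lower than the second. The first fell short of 2-fold with normexp (-0.98) and with spike-in scaling (-0.85). The second stayed past 2-fold in the 9 settings tried for it (-1.28 to -1.01), some of which could not change its value.

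The feedback genes thus lay below 0 on 4 of 4 measured probes, as did 56.5% of all probes, although that of Hif3a turned with the scaling and lay above the median of all probes. Their median was -0.80 by probe, where Egln3 counts 2 times, and -0.51 by gene. Egln3 was the feedback gene at least 2-fold lower, as were 11% of all genes, and Egln1 and Hif3a were not. The regulators outside the feedback lay above 0 on 4 of 4 measured probes, as did 43.5% of all probes. Their median was 0.62 by probe, where Egln2 counts 2 times, and 0.49 by gene, with a range of 0.39 to 0.88. Of these probes 0 reached 2-fold, and 79.5% of all probes lay within 2-fold as well. With 1 array per group, neither split has an error to be set against.

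**Figure D2:**
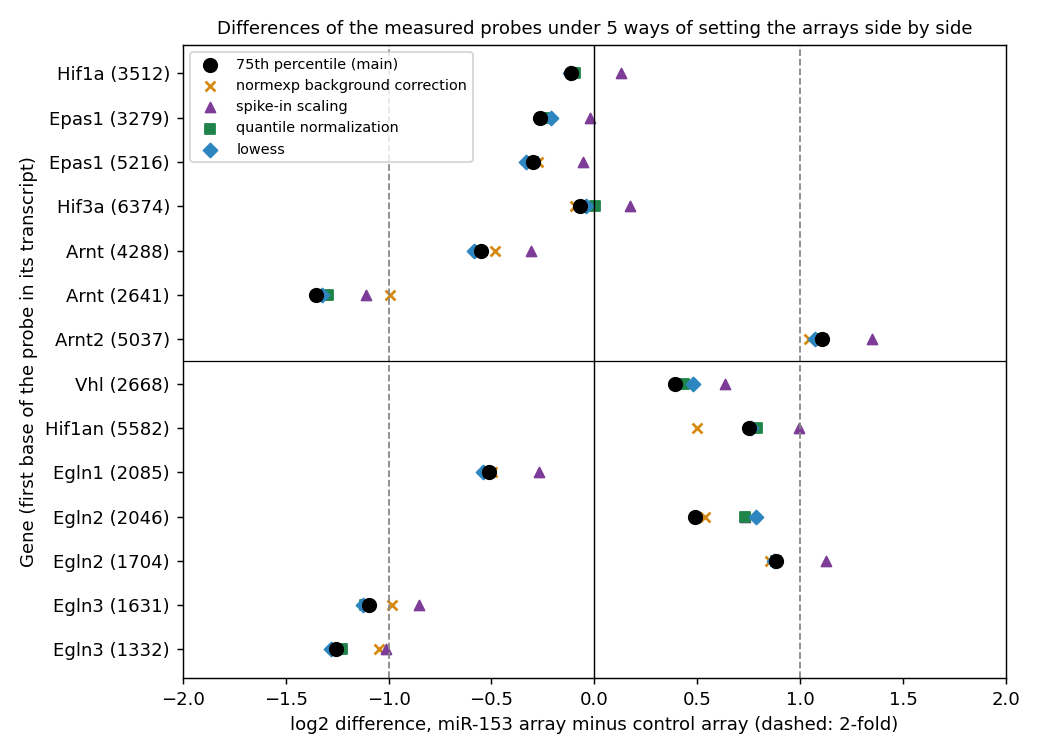
Difference of each of the 14 measured probes, as the log2 level in miR-153 cells less that in control cells, under 5 ways of processing the arrays, with subunits above the line and regulators below it. Dashed lines mark 2-fold. Spike-in scaling (triangles) lies to the right of the main values for each probe. Hif1a and Hif3a change sign with it, and the Egln3, Arnt and Arnt2 probes keep their side of 0.

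HIF binds the letters ACGTG or GCGTG in DNA. These were searched on both strands in the 250 bases before the start of each gene in RefSeq (GRCm38.p6), where 10 promoters of 9 members were found. At least 1 match stood in 7 of the 10 promoters, or in 6 of the 9 genes, against 38.6% of 32851 promoters of all genes. Promoters of Arnt2, Vhl and Hif1an held none in this window, and that of Hif1a held 3, of which 2 overlap on opposite strands. Promoters of the hydroxylases, which differed in direction, and of the feedback gene Hif3a are shown with the matches in capitals. For Egln2, which has 2 starts, the one with more matches is shown.
Egln1 (chr8:124949255-124949504, minus strand): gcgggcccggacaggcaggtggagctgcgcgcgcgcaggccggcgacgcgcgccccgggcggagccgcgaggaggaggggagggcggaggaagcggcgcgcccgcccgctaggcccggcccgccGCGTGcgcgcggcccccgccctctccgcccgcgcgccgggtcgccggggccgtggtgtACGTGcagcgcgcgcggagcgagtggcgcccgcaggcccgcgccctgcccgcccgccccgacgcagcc
Egln2 (chr7:27166803-27167052, minus strand): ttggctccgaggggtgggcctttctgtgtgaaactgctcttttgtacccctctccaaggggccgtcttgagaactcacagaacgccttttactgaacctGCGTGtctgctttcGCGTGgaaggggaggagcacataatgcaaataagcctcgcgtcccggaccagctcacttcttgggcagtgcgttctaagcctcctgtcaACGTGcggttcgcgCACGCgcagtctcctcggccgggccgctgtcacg
Egln3 (chr12:54203875-54204124, minus strand): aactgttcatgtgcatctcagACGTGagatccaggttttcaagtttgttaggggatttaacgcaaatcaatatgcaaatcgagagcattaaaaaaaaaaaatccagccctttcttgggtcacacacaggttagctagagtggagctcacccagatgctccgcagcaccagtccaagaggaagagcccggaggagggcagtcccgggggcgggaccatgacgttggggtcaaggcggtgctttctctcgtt
Hif3a (chr7:17062428-17062677, minus strand): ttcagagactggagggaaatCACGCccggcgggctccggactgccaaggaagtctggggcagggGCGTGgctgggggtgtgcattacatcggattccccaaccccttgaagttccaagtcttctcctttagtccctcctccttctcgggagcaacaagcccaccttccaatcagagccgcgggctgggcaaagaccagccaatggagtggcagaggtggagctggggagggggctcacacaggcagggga
Egln2, on the higher side in these arrays, had 4 matches in the promoter shown, and Egln3, the one past 2-fold lower, had 1, which lies 229 bases before the start. Egln1 had 2 and Hif3a had 2. A match is not a bound site.

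The listed genes that HIF is known to induce, other than the members, differed far more than the subunits and sensors. Of 46 such genes, 42 were measured on both arrays, and 29 were at least 2-fold lower on the miR-153 array, 1 was higher and 12 lay between. That is 69.0% lower, against 11% of all genes, and the median was -1.64 against -0.11 over all genes. Summed levels over the 46 were 673 on the miR-153 array and 1983 on the control array. As in the other sums given, the brightest probes weigh most, here those of glycolysis genes such as Ldha. The 4 genes not well above background are included. Adm, which encodes a vessel-dilating peptide, had a signal of 29.2 on the miR-153 array and 3145 on the control array (-7.09, or -5.44 with normexp). Vegfa, the vessel growth factor gene, had 1506 on the miR-153 array and 5256 on the control array (-2.14), and Car12, a carbonic anhydrase gene, had 34.1 on the miR-153 array and 472 on the control array (-4.13, or -2.74 with normexp). The difference of Egln3 was smaller than the median of these targets. Angptl4, which encodes a secreted inhibitor of lipoprotein lipase, was the exception at 762 on the miR-153 array and 109 on the control array (2.47). Car9, Lox, Mxi1 and Epo did not exceed background clearly on either array. Cited2, also a HIF-induced gene, was listed with the cofactors and is not counted here (0.91). The list was written with earlier results of these data known, so neither its direction nor its size of difference is independent evidence.

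**Figure D3:**
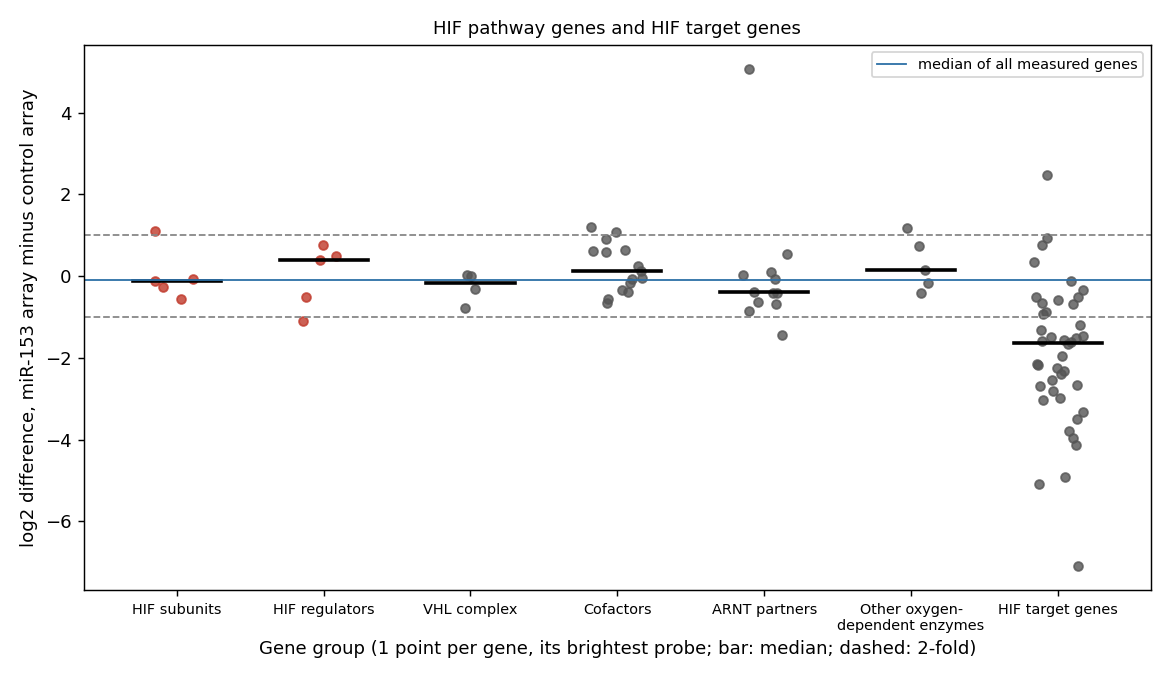
Difference of each measured gene, as the log2 level in miR-153 cells less that in control cells, in 7 groups of the HIF pathway, with 1 point per gene from its brightest probe. Black bars are medians, dashed lines mark 2-fold and the blue line is the median of all measured genes (-0.11). HIF target genes have a median of -1.64, while the medians of the other groups lie between the dashed lines.

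Genes that work beside the members were examined as well, and 79.7% of all genes lay within 2-fold. The VHL ubiquitin ligase is completed by elongins, a cullin and a RING protein, and 0 of its 4 measured genes passed 2-fold in either direction. Tceb1 (elongin C) was at -0.78, but a second probe gave 0.04. Rbx1 was at -0.32, Tceb2 (elongin B) at -0.01 and Cul2 at 0.03. Of 15 cofactors and other regulators of HIF, 2 were at least 2-fold higher and 0 lower, with a median of 0.11. Os9, which encodes a lectin of protein quality control also reported to bind HIF-1 alpha, had a signal of 7647 on the miR-153 array and 2626 on the control array (1.21). Usp20, a deubiquitinase gene, had 6294 on the miR-153 array and 2342 on the control array (1.09). Cited2, a HIF-induced gene whose protein competes with the alpha subunits for coactivators, was at 0.91 and thus on the opposite side from Egln3. The coactivator genes Ep300 (-0.16) and Crebbp (0.11) differed little, and that of Ep300 turned to 0.09 under spike-in scaling.

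Other proteins of the bHLH-PAS family share the beta subunits with HIF or resemble them. Of 12 genes measured in this group, which also held targets of the aryl hydrocarbon receptor, 1 was higher and 1 lower. The median was -0.40, and over all genes 9.22% were at least 2-fold higher and 11% lower. Npas4, an activity-induced factor of neurons that pairs with ARNT proteins, had a signal of 3712 on the miR-153 array and 88.3 on the control array (5.06, or 4.07 with normexp). Nqo1, which encodes a quinone reductase, had 169 on the miR-153 array and 361 on the control array (-1.43). The receptor gene Ahr was at -0.08 on its brightest probe and at -1.29 on its other one. Among 5 further oxygen-dependent enzymes that have been proposed as sensors, Kdm4a, a histone demethylase gene, was higher (1.18) and 4 lay between, among them Kdm6a (0.73).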

How the data were processed

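RNA of 1 array per group was measured on 1-colour Agilent arrays. The values used are intensity values that the authors deposited as scanner files, which the submitters' processing notes trace to version 10.7.3.1 of Agilent Feature Extraction, with the processed signal already background-subtracted per the file headers. The series table, also intensity, equals that signal divided by 485 (miR-153) and 381 (control), so it is linear, neither centred nor inverted, with medians of 0.0614 and 0.0662. Columns of other samples numbered 0.

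From these, log2 of the signal minus the 75th percentile over non-control spots was computed. Of those spots, 229 with an outlier flag were left out, 0 of them of members, and repeat spots were averaged. A probe well above background on 1 array has only a lower bound, against the higher of its own level and the lowest level well above background on the dim array (-4.86 miR-153, -4.34 control). Brightest probes stood for genes. Named genes were all members, up to 4 list genes past 2-fold in each direction, and genes of the small lists. Vegfa, the marker genes given as examples and the list genes not well above background were named after their values were seen. Positions are those of the file headers (mm9), whose exon or UTR status is not annotated there. Alternatives used limma 3.58.1 (R 4.3.3, normexp offset 50), spike-in, quantile and lowess scaling. The steps were tested on simulated data. Members and lists were chosen with earlier results of these data known. The number of arrays limits the precision.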

Additional observations from a re-analysis of the deposited data

How the results depend on the processing

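Of the 14 measured member probes, 12 kept their sign in all settings tried, and those of Hif1a and Hif3a did not. Past 2-fold in all of them were 2, those of Arnt2 and the dimmer Egln3 probe. The count of member probes at least 2-fold lower was 1 with normexp and with bright probes only, and 5 with no filter on dim probes, against 3. That of higher ones was 2 with spike-in scaling and with no filter, against 1. The subunit median was -0.021 with spike-in scaling and -0.11 by gene, against -0.26, and the regulator median was 0.64 with spike-in scaling and 0.48 with lowess, against 0.39. HIF targets at least 2-fold lower numbered 24 to 32, and higher ones 3 with spike-in scaling and 0 with bright probes only. Over all probes, 63.8% of those past 2-fold were higher with spike-in scaling, against 44.0%. Higher probes numbered 3768 with spike-in scaling, 1451 with normexp, 5124 with no filter and 1030 with bright probes only, against 2476. Lower ones numbered 2021 with normexp, 6941 with no filter and 1253 with bright probes only, against 3156. Of 97 values of member genes under an alternative, 18 moved by more than the repeat-spot SD, 15 upward and 3 downward. Many of the 97 could not move. The series table, the kept outlier flags and the filters on dim or bright probes left the brightest-probe value of each gene kept as it was. The 97 therefore overstate how far stability was tried, as do the counts of settings per probe. Spike-in scaling added the same 0.24 to each member gene, which made up most of the upward moves. Averaging the probes of a gene moved Arnt and Egln3 downward and Egln2 upward. Other causes were not tested, beyond the fewer or added probes that the filters bring. No paired analysis was possible because each group has 1 array. Dim probes of Hif1a, Epas1 and Hif3a are limited by signal over background.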

Other observations

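Beside Angptl4, some genes that HIF induces lay above 0 or close to it. Pfkfb4, a regulator of glycolysis, was at 0.93, Kdm4b, a histone demethylase gene, at 0.77 and Plod1, a collagen lysyl hydroxylase gene, at 0.34, and Aldoc, an aldolase gene of brain, was at -0.11. Within a family, Pfkfb3 was at -1.67, and at -2.79 on its other probe, beside Pfkfb4. The hexokinase gene Hk2 was at -3.49 on its 1 probe, beside Hk1, whose 3 measured probes ranged from -0.65 to 0.26. These genes were chosen after their values had been seen.

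Among all measured probes, the 83 that held the 7 bases CTATGCA had a median difference of -0.27, against -0.11 for the rest. The 372 that held TATGCA, which include those 83, had a median of -0.16, against -0.11. Probes sample a small part of each transcript, and these medians are given without a test.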
